A study of Homo sapiens with 2 samples.

Results

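The histone genes of DLD-1 cells were compared between an array of cells with an inducible wild-type p53 switched off and an array of the same cells 9 h after it was switched on. Members were the genes whose symbol is that of a histone, in the old form (HIST1H to HIST4H, H1F, H2AF, H3F3) or in the matching current form, and only probe sets annotated to 1 gene symbol were used. This gave 54 histone genes, covered by 78 probe sets, among 19775 genes with such a probe set. They were split into 44 canonical genes, those named as members of the histone clusters and read by 50 probe sets, and 10 variant genes, read by 28. Current symbols are used throughout, so that HIST1H2BK is H2BC12, H3F3A is H3-3A and H2AFZ is H2AZ1. A further 1 antisense gene and 3 pseudogenes of histones were counted apart, and 29 probe sets annotated to several symbols, at least 1 of them a histone, were left out of all gene counts.

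Histones are the proteins around which DNA is wound: H2A, H2B, H3 and H4 form the nucleosome core and H1 binds the linker DNA between nucleosomes. The canonical genes are present in many near-identical copies, are transcribed mainly in S phase when new chromatin is assembled, and make messages that end in a conserved stem-loop instead of a poly(A) tail. Variant histones such as H2A.Z, macroH2A and H3.3 are made throughout the cell cycle from ordinary polyadenylated messages and are placed at particular sites or times. p53 is a transcription factor that halts the cell cycle through its target genes.

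DLD-1 is an established human colorectal carcinoma line. Both arrays came from cells stably carrying wild-type p53 under tet-off control, where the drug silences the transgene. The p53 off cells grew with tetracycline, and the p53 on cells had been deprived of it for 9 h. The labels do not say whether the line was 1 clone. Total RNA was hybridised to 1 Affymetrix array per condition, so no value below has a replicate, an error or a test, and every ratio describes these 2 arrays. The transgene's own signal is not reported, and both conditions are named as in the labels.

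Signals are the deposited MAS5 intensities on a linear scale. A signal under 112.4, the median of all signals that were not controls on both arrays, was set to that floor. A ratio with 1 signal under the floor is a bound and is written "at least", and a gene with both under it was not measured. Of the 19775 genes, 13915 were measured, with a median log2 ratio of p53 on over p53 off of 0.0035 and an SD over genes of 1.06. The trimmed mean signal was 500.1 on both arrays, but the control probe sets differed. The ratio of 3' to 5' signal of beta-actin was 1.37 on the p53 off and 7.29 on the p53 on array, that of GAPDH was 0.97 and 1.77, and the 18 hybridization spike-in probe sets were a median of 1.89 times brighter with p53 on. The first of these is a measure of RNA or labelling quality, and its part in the histone ratios was not tested. Of 9 markers of colon epithelium, 8 were above the floor on both arrays, against 0 of 3 leukocyte markers with a signal on either array, 0 and 2 of 4 fibroblast markers and 1 and 3 of 3 endothelial markers on the p53 off and p53 on arrays. In bulk RNA, fewer cells making a message and less of it per cell cannot be told apart.

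Both classes of histone gene were mixed in direction. A gene is counted as higher or lower here where its p53 on signal differed by 1.5-fold or more. That held for 25.9% of all measured genes upward and 25.9% downward. Of the 44 canonical genes, 23 were measured, of which 7 (30.4%) counted as higher, 5 (21.7%) as lower and 11 as neither. These shares lie near those of all genes, and the counts are therefore no result about canonical histones as a group. Among the 11, H2AC8, H2AC15 and H2BC14 had only lower bounds, so their true ratios could lie past 1.5-fold. The median log2 ratio of the 23 measured canonical genes was 0.34, which is the bound of H2AC8 and so depends on the floor. It was 0.12 over 28 genes with the floor at the 40th percentile and 0.042 over 17 at the 60th. Over all 44 genes it was below 0 with a pseudocount of 1 (-0.045) or equal to the floor (-0.022). With scaling to the spike-ins it was -0.35 over 19 genes. Of the 10 variant genes, 8 were measured, of which 3 counted as higher, 1 as lower and 4 lay between, with a median log2 ratio of 0.28 that was -0.75 with scaling to the spike-ins. Spike-in scaling moved the median of all genes to -0.83, and relative to it the canonical median was 0.48 and the variant median 0.073 higher.

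**Figure D1:**
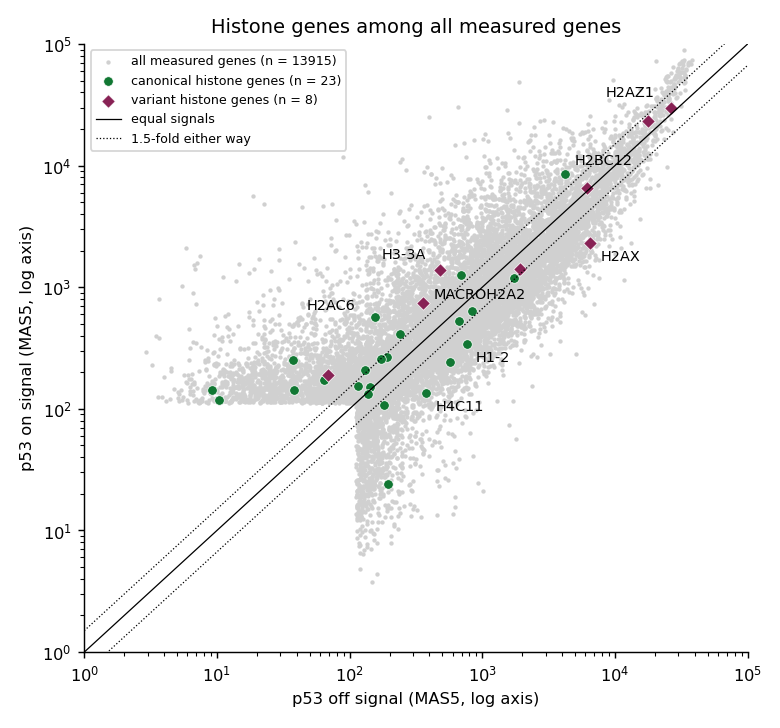
MAS5 signal on the p53 on array (vertical, log axis) against the p53 off array (horizontal, log axis) for all 13915 measured genes in grey, 23 canonical histone genes as green circles and 8 variant genes as purple diamonds; dotted lines mark 1.5-fold either way. Signals are drawn without the floor, so genes whose ratio is a bound can lie past the lines without being counted as higher or lower. The histone genes lie within the grey cloud, whose ratios reach farther in both directions. H2AC6 and H3-3A are among those above the lines, and H4C11, H1-2 and H2AX among those below.

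Promoter windows of 300 bases, from 250 before to 50 after the start of the gene, were available from RefSeq (GRCh38.p14) for 51 of the 54 members. They are shown for the canonical genes with the largest ratios in each direction among those with both signals above the floor, H2AC6 and H2BC12 among the higher (H2BC4, also higher, shares most of its window with H2AC6) and H1-2, H2BC9 and H4C11 among the lower, and for H2AX, the variant with a lower signal, because canonical genes are known to share a small set of promoter elements. Each is written 5' to 3' along the gene's own strand. Capitals mark the CCAAT box (CCAAT), the TATA box (TATAAA), the octamer of H2B promoters (ATTTGCAT), the cell cycle homology region or CHR (TTTGAA or TTCGAA) and the E2F words TTTCGCGC, TTCGCGC and TTGGCGC, each on either strand. The longer E2F word contains the shorter TTCGCGC, and in H2BC12 a pair of TATA words on opposite strands overlap, and a CCAAT box and an E2F word stand side by side. The H2AC6 window also contains most of that of H2BC4, read from the other strand, as the 2 windows overlap by 255 bases.
H2AC6, chr6:26123922-26124221, plus strand: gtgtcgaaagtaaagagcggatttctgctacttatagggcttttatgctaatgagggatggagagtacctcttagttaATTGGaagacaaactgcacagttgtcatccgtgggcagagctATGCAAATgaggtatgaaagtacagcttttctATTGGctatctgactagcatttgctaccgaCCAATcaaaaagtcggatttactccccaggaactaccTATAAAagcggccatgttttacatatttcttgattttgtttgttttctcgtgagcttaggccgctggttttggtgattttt
H2BC12, chr6:27146809-27147108, minus strand: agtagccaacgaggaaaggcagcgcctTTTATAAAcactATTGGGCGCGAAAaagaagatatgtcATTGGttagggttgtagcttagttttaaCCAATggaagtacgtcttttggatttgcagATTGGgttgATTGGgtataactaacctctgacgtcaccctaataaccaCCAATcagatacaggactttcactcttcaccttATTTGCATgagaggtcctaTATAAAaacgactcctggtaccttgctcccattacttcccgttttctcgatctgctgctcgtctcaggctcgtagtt
H1-2, chr6:26056421-26056720, minus strand: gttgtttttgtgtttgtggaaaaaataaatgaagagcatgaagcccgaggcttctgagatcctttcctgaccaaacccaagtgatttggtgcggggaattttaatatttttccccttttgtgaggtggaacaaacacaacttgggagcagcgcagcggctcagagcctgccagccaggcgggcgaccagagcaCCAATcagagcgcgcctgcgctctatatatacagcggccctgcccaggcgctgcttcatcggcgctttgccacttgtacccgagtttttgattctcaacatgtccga
H2BC9, chr6:26251364-26251663, plus strand: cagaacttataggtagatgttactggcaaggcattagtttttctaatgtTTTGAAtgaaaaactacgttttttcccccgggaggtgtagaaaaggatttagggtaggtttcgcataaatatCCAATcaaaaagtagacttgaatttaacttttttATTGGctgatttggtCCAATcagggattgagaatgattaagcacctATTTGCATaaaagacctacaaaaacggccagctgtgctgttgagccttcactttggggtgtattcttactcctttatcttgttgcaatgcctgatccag
H4C11, chr6:27823842-27824141, plus strand: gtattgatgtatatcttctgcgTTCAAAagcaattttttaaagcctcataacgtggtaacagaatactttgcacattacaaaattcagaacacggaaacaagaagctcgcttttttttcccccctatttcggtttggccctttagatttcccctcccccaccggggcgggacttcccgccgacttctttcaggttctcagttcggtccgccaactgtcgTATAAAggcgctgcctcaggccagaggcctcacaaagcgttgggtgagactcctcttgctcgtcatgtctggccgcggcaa
H2AX, chr11:119095416-119095715, minus strand: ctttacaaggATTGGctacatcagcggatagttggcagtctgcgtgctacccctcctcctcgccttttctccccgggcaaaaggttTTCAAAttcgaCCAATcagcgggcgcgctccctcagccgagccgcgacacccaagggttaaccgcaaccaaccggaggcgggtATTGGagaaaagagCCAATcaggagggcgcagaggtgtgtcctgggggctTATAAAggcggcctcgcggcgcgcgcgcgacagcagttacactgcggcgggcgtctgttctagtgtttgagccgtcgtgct

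The elements were common in canonical windows, and each was found both among higher and among lower genes. The CCAAT box, bound by NF-Y, was in 36 of 41 canonical windows (87.8%), in 7 of 10 variant windows and in 35.7% of the windows of all 27305 genes in the table. It was in every H1, H2A, H2B and H3 window and in 2 of 7 H4 windows. The TATA box was in 28 canonical windows (68.3%) against 11.95% of all. The octamer, bound by POU2F1, was in 16 canonical windows (39.0%) against 1.80% of all, and these were 6 of 8 H2A and 10 of 13 H2B windows. It was in 0 of 10 variant windows. The CHR was in 14 canonical windows (34.1%) against 16.6% of all, and an E2F word in 9 (22.0%) against 5.18%. Windows of head-to-head genes share sequence and are not independent.

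Of the 7 higher canonical genes, 6 held the CCAAT box, 6 the TATA box, 5 the octamer, 1 the CHR and 2 an E2F word. Of the 5 lower ones these counts were 4, 3, 2, 2 and 1. In H2AC6 the TATA box starts at position -31 from the gene start and the octamer, on the other strand, at -130. H2BC9 holds the octamer but not the TATA word in its window, H1-2 only a CCAAT box, and H4C11 a TATA box and a CHR. A match is a description of these letters and not a bound site, and a missing word says only that those letters are not in this window.

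The canonical linker histones were lower. H1-2, the H1.2 linker histone, had signals of 768.6 (p53 off) and 343.0 (p53 on) and was 2.24-fold lower. H1-3, the H1.3 linker histone, had signals of 194.1 and 23.9 and was at least 1.73-fold lower, since its p53 on signal lay under the floor. Both had a single probe set, and the other 4 of the 6 canonical H1 genes were not measured, so the direction rests on a pair of probe sets, of which that of H1-3 gave only a bound of -0.20 on the log2 scale with the floor at the 60th percentile.

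H2A, the core histone that pairs with H2B, had 7 of 8 canonical genes measured, with a median log2 ratio of 0.34, of which 3 counted as higher and 1 as lower. H2AC6 had the largest ratio of the canonical genes with both signals above the floor, with signals of 156.6 (p53 off) and 570.0 (p53 on), 3.64-fold higher. Its only probe set has a name that marks shared sequence (_s_at). H2AC14 had signals of 239.5 and 409.0 on an _x_at probe set, a name that also marks shared sequence. Its log2 ratio of 0.77 became -0.15 when the arrays were scaled to the spike-ins. Only 3 of the 7 H2A genes had both signals above the floor, so most H2A ratios are bounds, and with a pseudocount of 1 in place of the floor H2AC8 (3.80) and H2AC15 (3.38) had larger log2 ratios than H2AC6 (1.86). H2AC4 had 64.5 and 173.8 (log2 ratio at least 0.63), H2AC8 had 9.22 and 141.8 (at least 0.34) and H2AC15 had 10.4 and 117.4 (at least 0.06). In the opposite direction, H2AC17 had 181.2 and 107.3, a log2 ratio of -0.69 as a bound. H2AC25, a gene of chromosome 1, was the only canonical H2A gene with more than 1 measured probe set, and these differed in sign, with 671.7 and 527.3 (-0.35) on the brighter and 169.5 and 198.7 (0.23) on the other.

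H2B had 8 of 14 canonical genes measured, with a median log2 ratio of 0.42, of which 3 counted as higher and 1 as lower. H2BC12 had signals of 4218 (p53 off) and 8498 (p53 on), 2.01-fold higher. H2BC4 had 37.6 and 250.03 and was at least 2.23-fold higher. Neither reached 1.5-fold with spike-in scaling, which put their log2 ratios at 0.092 and 0.23. H2BC5 was read by a pair of probe sets that gave like ratios, 696.4 and 1262 on the brighter (0.86 on the log2 scale) and 502.3 and 885.2 on the other (0.82), although spike-in scaling turned the first to -0.061. Both are _x_at probe sets, so their likeness is not independent. H2BC9 stood opposite to these genes, with 571.7 and 243.7, 2.35-fold lower, also on a probe set whose name marks shared sequence (_x_at). H2BC12L, the H2B gene of chromosome 21, had 1745 and 1181, a log2 ratio of -0.56, and H2BC6 had 835.0 and 637.5, a ratio of -0.39. Neither reached 1.5-fold. H2BC21, on chromosome 1, had 191.9 and 269.2 (0.49), and H2BC14 had 37.8 and 143.6 (at least 0.35).

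H3 and H4, which form the inner tetramer of the nucleosome, gave fewer values. Of 8 canonical H3 genes only H3C6 was measured, at 115.6 and 154.6, close to the floor, with a log2 ratio of 0.42. Of 8 canonical H4 genes, 5 were measured, with a median log2 ratio of 0.08. H4C11 had the lowest ratio of the canonical genes with both signals above the floor, at 377.4 (p53 off) and 136.3 (p53 on), 2.77-fold lower, again on an _x_at probe set. With spike-in scaling H2BC9 (-2.15) and H1-2 (-2.08) lay below it (-1.75). H4C8 had 129.7 and 210.4 on an _s_at probe set, a ratio of 0.70. That ratio was at least 0.45 on the gene's other probe set and became -0.21 with spike-in scaling. The remaining H4 genes stayed within 1.5-fold: H4C9 at 172.9 and 256.6 (0.57), H4C4 at 142.4 and 150.7 (0.08) and H4C7 at 136.9 and 133.4 (-0.04). The genes just inside and just outside the 1.5-fold threshold were H2AC4 at 0.63 and H4C9 at 0.57 on the higher side, and H2AC17 at -0.69 and H2BC12L at -0.56 on the lower side.

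**Figure D2:**
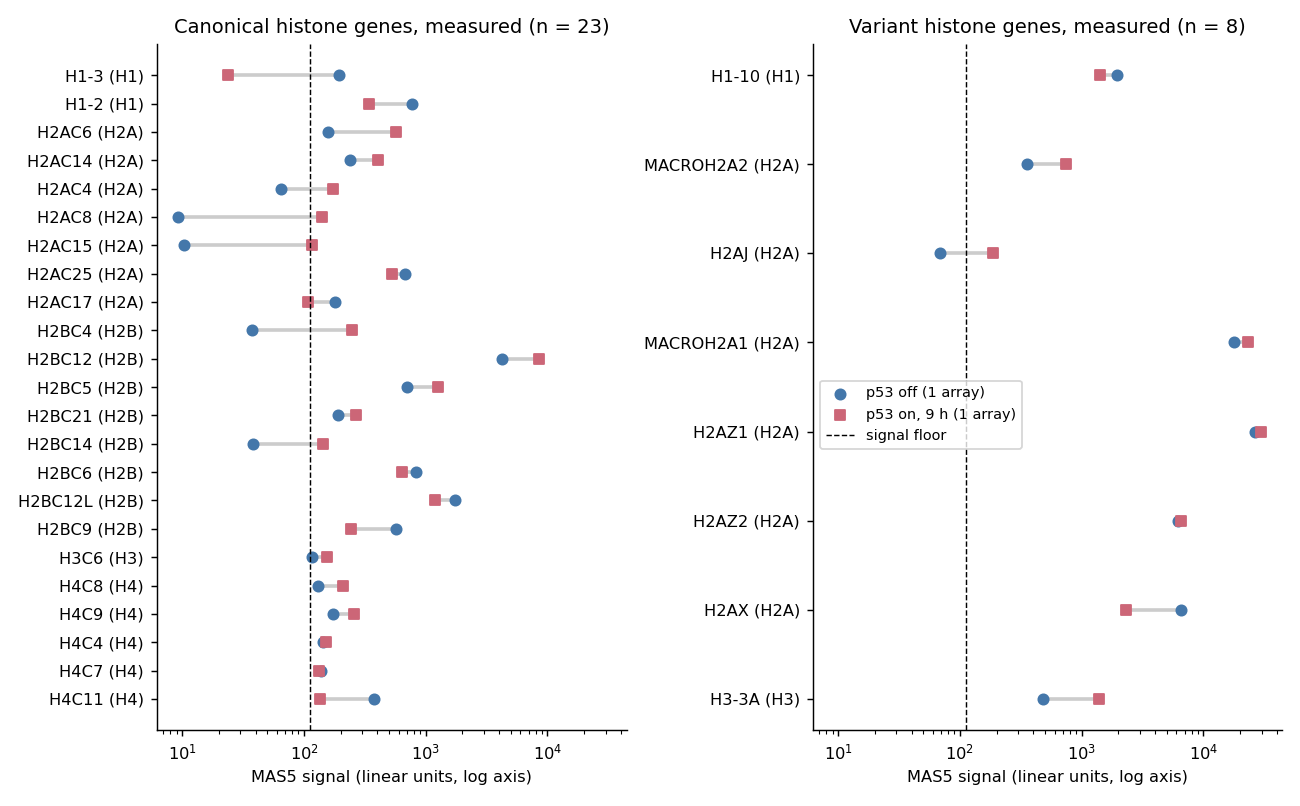
MAS5 signals (horizontal, log axis) of the 23 measured canonical genes (left) and 8 measured variant genes (right), with p53 off as blue circles and p53 on as red squares, 1 array each; the dashed line is the floor of 112.4. In 7 canonical genes and in H2AJ 1 of the signals lies under the floor, and their ratios are bounds.

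The 21 canonical genes that were not measured had signals between 3.12 and 111.2, and in 7 of them the p53 on signal was the higher. Canonical histone messages lack a poly(A) tail, and the sources used here do not say whether labelling started from poly(A). Near-identical copies also share sequence. Among measured canonical genes, the 6 represented by an _x_at probe set had a median log2 ratio of -0.48 and the 17 others 0.35. The first set held 2 higher and 2 lower genes, and the second 5 higher and 3 lower. The second set also included H2AC6, H2BC21 and H4C8 on _s_at probe sets, and it held all 7 bounds, against 0 in the first. The sets thus differ in dim signals as well as in probe set name.

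The 29 probe sets annotated to several symbols can be described by family only. Of these, 20 were measured, of which 6 counted as higher and 6 as lower, against 25.9% of all measured genes each way. These shares lie near those of all genes, and the counts by family rest on few probe sets and are descriptions only. The H4 probe set with both signals above the floor had signals of 24200 (p53 off) and 9736 (p53 on), a log2 ratio of -1.31, and the other measured H4 probe set gave -0.54 as a bound. Those of H2A gave 3 higher and 0 lower of 5 measured, with ratios from -0.0047 to 1.80. Those of H2B gave 1 higher and 2 lower of 3 measured, from -0.90 to 1.09. The 1 measured probe set of H3 alone had 171.7 and 371.0 (1.11), and 1 annotated to both H2A and H3 genes gave -0.80 as a bound. The shared probe sets of H3.3, a variant, gave 1 higher and 2 lower of 8, from -1.94 to 0.62.

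A split by gene length was made after the values had been seen and is given as a description. In RefSeq, 5 canonical genes span over 1000 bases (H2BC4, H2BC5, H2BC12, H2BC21 and H3C6, from 2224 to 13229 bases), while the other 39 span 386 to 797. Some clustered histone genes are known to make longer, polyadenylated transcripts besides the stem-loop message. All 5 long genes were measured, and 3 of them counted as higher, 1 of these as a bound. The log2 ratios of the 5 ran from 0.42 to 1.15 with a median of 0.86. Spike-in scaling put H2BC5 (-0.061), H2BC21 (-0.43) and H3C6 (-0.041) below 0, and H2BC12 (0.092) and H2BC4 (0.23) within 1.5-fold. Of the 39 short genes 18 were measured, with a median of 0.013, 4 of them higher and 5 lower. Among all measured genes, 25.9% counted as higher and 25.9% as lower, and both sets are small. The short gene H4C9 lies within the span of H2BC12 on the opposite strand. Which transcript each probe set reads was not tested.

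Canonical genes lie mainly in the cluster on chromosome 6, which held 40 of the 44, with 20 of them measured. Higher and lower genes were interspersed along it. H2BC4 and H2AC6 are transcribed away from each other from starts 245 bases apart, and both were higher, at a log2 ratio of at least 1.15 and of 1.86. H2AC14 and H2BC14, 244 bases apart, had 0.77 and at least 0.35. In the other such pairs with both windows in the table, H2AC15 with H2BC15 (193 bases) and H2AC17 with H2BC17 (239 bases), the H2B gene was not measured. H2BC9 lay between genes that were not measured, and H4C11 between H2BC14 and H2AC15, whose ratios were bounds above 0.

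**Figure D3:**
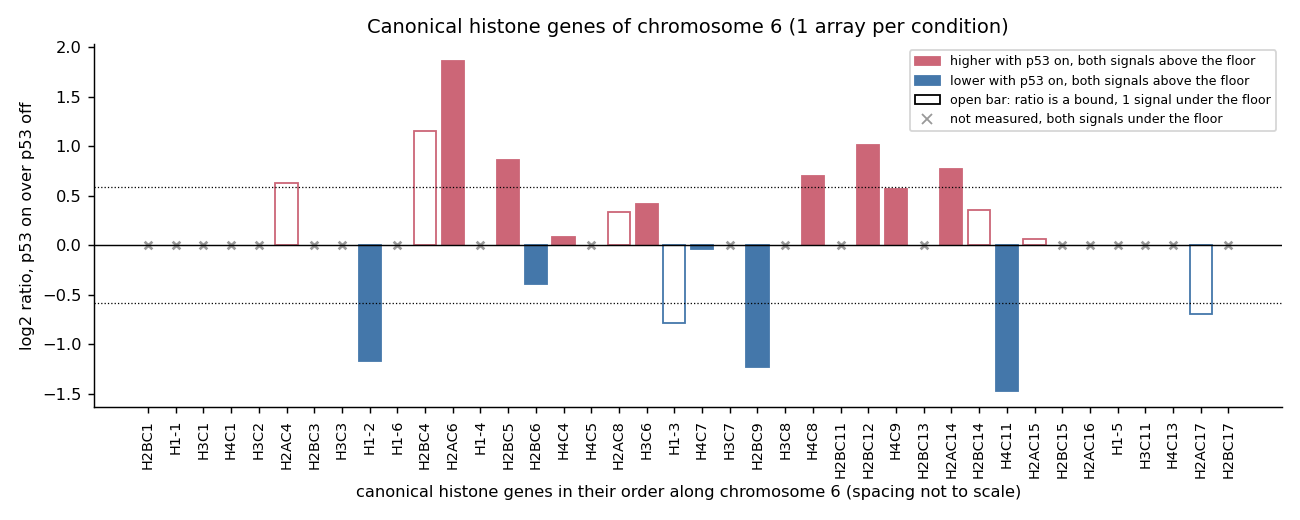
Log2 ratio of p53 on over p53 off (vertical axis) for the canonical histone genes with a RefSeq position on chromosome 6, in their order along it and not to scale; open bars are bounds, crosses are genes not measured and dotted lines mark 1.5-fold. Higher and lower genes are interspersed, from H2AC6 at 1.86 to H4C11 at -1.47, and the neighbours H2BC4 and H2AC6 are both higher.

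Among the variants, H2AX was the one counted as lower. It encodes H2A.X, which is phosphorylated at DNA breaks and whose message also exists in a stem-loop form. Its brightest probe set had signals of 6489 (p53 off) and 2308 (p53 on), 2.81-fold lower, and the next ones had 779.2 and 416.4 (a log2 ratio of -0.90) and 433.3 and 311.6 (-0.48). These 3 are _s_at probe sets. The fourth, an _x_at probe set, went the other way, from 70.7 to 202.5 (at least 0.85), and the mean over the 4 was -0.51. H2AX was thus lower on 3 of 4 probe sets, past 1.5-fold on 2 of them. Without H2AX the median of the variants was 0.39. Its promoter window above holds 4 CCAAT boxes, a TATA box and a CHR.

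H2A.Z, the H2A variant placed at promoters and regulatory regions, stayed within 1.5-fold as scaled by the authors. H2AZ1 had signals of 26522 and 29763, a log2 ratio of 0.17, and 0.36 on its other probe set. H2AZ2 had 6185 and 6596, a ratio of 0.09, with 4 probe sets from -0.44 to 0.31. No probe set of either gene reached 1.5-fold, and spike-in scaling put H2AZ1 at -0.75 and H2AZ2 at -0.83, near the median of all genes under it. H2AJ, a mammalian H2A variant, had 68.2 and 188.5 (at least 0.75) on its brightest probe set and a bound of -0.16 on another, so its direction rests on dim signals.

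MacroH2A carries a large extra domain and is enriched on the inactive X chromosome and in silent chromatin. MACROH2A2 had signals of 357.6 (p53 off) and 748.5 (p53 on), 2.09-fold higher, on its only probe set, and a log2 ratio of 0.15 with spike-in scaling. MACROH2A1 had 17792 and 23321, a ratio of 0.39, and its 5 measured probe sets of 7 ran from -0.28 to 0.39. The paralogs therefore lay on different sides of the 1.5-fold threshold, and a difference between them was not tested.

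H3.3, the H3 variant placed outside S phase by HIRA and by DAXX with ATRX, is encoded by a pair of genes. H3-3A had signals of 477.4 (p53 off) and 1390 (p53 on), 2.91-fold higher, on its only probe set with 1 symbol, an _s_at probe set. This is the largest ratio among the variants with both signals above the floor. However, it stands against the 8 shared probe sets of H3.3, whose ratios reached only 0.62, with 1 counted as higher and 2 as lower. With p53 off the shared probe sets had signals from 1089 to 29359, all brighter than the 477.4 of this one. H1-10, the linker variant H1.10, had 1936 and 1425, a ratio of -0.44, and the germline linker variants H1-7 and H1-8 were not measured. CENPA, the centromeric H3 variant, falls outside the naming rule for members. It had 706.7 and 186.0, 3.80-fold lower.

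Repeat probe sets were the only check within an array. For the 8 histone genes with more than 1 measured probe set, the log2 ratios of 1 gene spanned a median of 0.62, against 0.83 over the 6676 genes of the array with more than 1. Probe sets of H2AC25, H2AJ, H2AX, H2AZ2 and MACROH2A1 lay on both sides of 0, and those of H2BC5, H4C8 and H2AZ1 on 1 side.

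**Figure D4:**
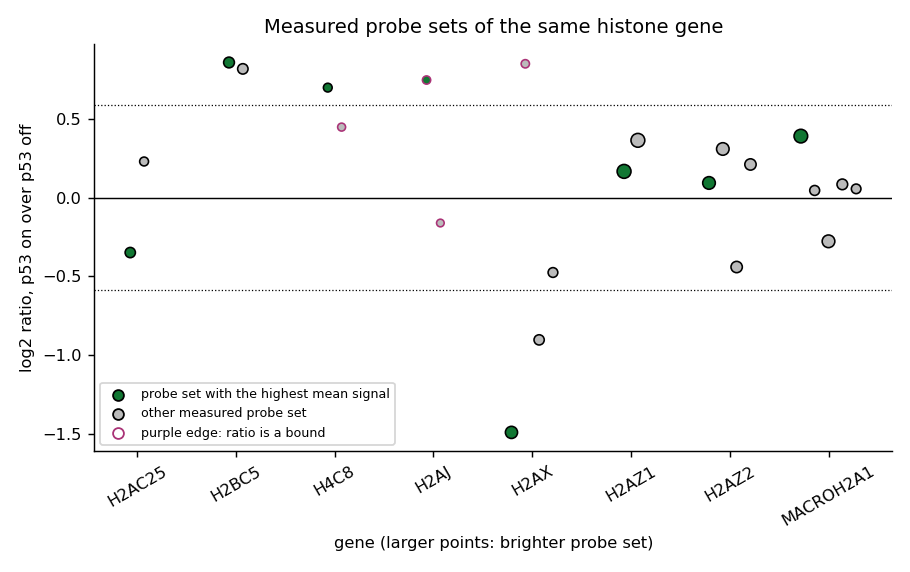
Log2 ratio of p53 on over p53 off (vertical axis) for every measured probe set of the 8 histone genes with more than 1; green points are the brightest probe set, larger points are brighter and purple edges mark bounds. The 3 brighter probe sets of H2AX lie below 0 and the dimmest above it, while the H2BC5 points almost coincide.

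The genes that make, process or degrade canonical histone messages, called the production list, lay mostly below 0, in 22 of 28 cases. Among all measured genes, 6934 of 13915 lay below 0. Of 30 listed, 28 were measured, of which 14 counted as lower and 3 (10.7%) as higher, against 25.9% of all genes each way. The median log2 ratio was -0.60, and it lay between -0.59 and -1.65 over the alternative settings. ERI1, the exonuclease that trims and degrades histone messages, had signals of 1429.7 and 361.1 and was 3.96-fold lower. CDK2, the kinase that with cyclin E phosphorylates the histone gene coactivator NPAT, had 2303 and 608.6 and was 3.78-fold lower. CCNE2, a cyclin E, was 3.67-fold lower at 2258 and 615.7. CASP8AP2, also called FLASH, which acts in histone message transcription and 3' processing, was 3.60-fold lower at 991.3 and 275.6.

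Other members, chosen after their values were seen, differed less. NPAT had 821.1 and 475.6 (-0.79) and SLBP, which binds the stem-loop, had 8808 and 6599 (-0.42). LSM10, of the U7 particle that directs 3' processing, had 2364 and 863.8 (-1.45). The 3 higher genes were UPF1 (1.03) and TUT7 (0.96), which act in histone message decay, and CPSF2 (0.89), a partner of the cleavage factor, one of whose other probe sets gave -1.13.

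The chaperones and remodellers that carry or exchange histones lay below 0 in 17 of 24 cases, against 6934 of all 13915 measured genes. All 24 listed were measured, of which 14 (58.3%) counted as lower and 4 (16.7%) as higher, against 25.9% of all genes each way. The median log2 ratio was -1.09, and it lay between -0.70 and -1.97 over the alternative settings. The largest differences were in ASF1B, an H3-H4 chaperone of dividing cells, at 3232 and 280.4 (-3.53), and HJURP, the chaperone of CENPA, at 2595 and 266.4 (-3.28). KAT5, the acetyltransferase of a complex that also exchanges H2A.Z, was 3.84-fold lower at 1384 and 360.3, and VPS72, the H2A.Z-binding subunit of these remodellers, 3.73-fold lower at 2322 and 622.7.

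**Figure D5:**
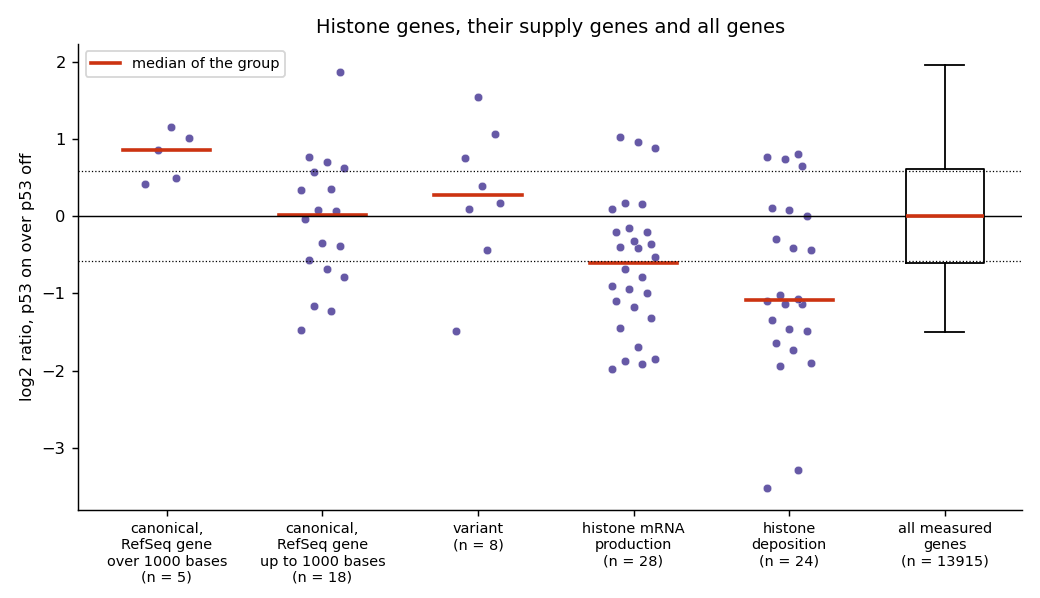
Log2 ratio of p53 on over p53 off (vertical axis) for canonical histone genes split by RefSeq gene length, variant histone genes, the lists of histone message production and of histone deposition, and all 13915 measured genes; each point is 1 measured gene with bounds included, red lines are medians, dotted lines mark 1.5-fold, and the box for all genes spans the quartiles with whiskers at the 5th and 95th percentile. The short canonical genes and the variants lie on both sides of 0, while the medians of the production and deposition lists are -0.60 and -1.09.

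The 4 higher genes of that list, named after their values were seen, were HIRA (2625 and 4368, a log2 ratio of 0.73) and its partner UBN1 (936.4 and 1586, 0.76), ASF1A (3053 and 4780, 0.65) and NAP1L4 (5692 and 9943, 0.80). Another probe set of NAP1L4 gave -0.13. All 4 of these differences were smaller than the median of 1.89 times by which the spike-ins were brighter with p53 on. HIRA, UBN1 and ASF1A act together in placing H3.3 outside S phase, but CABIN1, another subunit of the HIRA complex, had 762.0 and 571.3 (-0.42). DAXX, of the other H3.3 route, had 1026.4 and 307.7 (-1.74) and ATRX 858.4 and 909.6 (0.08). CHAF1A and CHAF1B, subunits of the assembly factor that works at replication forks, had 1982.5 and 782.3 (-1.34) and 899.5 and 407.7 (-1.14). The members of both lists were chosen with earlier results of these arrays known, and their counts describe these 2 arrays only. The higher 3' to 5' ratio of beta-actin on the p53 on array stands beside both lists too, and its part in them was not tested.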

How the data were processed

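Total RNA of DLD-1 cells was measured on 2 Affymetrix arrays, 1 per condition. The authors deposited 1 linear intensity (signal) for each probe set, and the submitters' processing notes name MAS5. The sources used here do not state its version, detection calls or settings. Arrays have no read depth, and only their number, 1 per condition, sets the precision.

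Of 54675 probe sets, 62 were controls, 41091 had 1 symbol in GEO's platform annotation, 1801 had several and 11721 were unnamed here. Entrez identifiers led to current RefSeq symbols for 41037 of the 41091. The floor was the 50th percentile of signals that were not controls, and the probe set of highest mean signal stood for a gene. With no replicates, there is no test or p-value, and genes were counted at 1.5-fold. Shared-sequence probe sets are those named _x_at or _s_at.

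The histone members, the gene lists and the rule for named genes were chosen with earlier results of these data known. By that rule every measured histone gene is given by its signals, each other list by its 4 largest absolute log2 ratios, and CENPA is added. Alternatives were a floor at the 40th or at the 60th percentile, a pseudocount of 1 or of the floor in its place, quantile normalization, centring on the median gene, scaling to the hybridization spike-ins, loess (span 0.3), the mean of a gene's measured probe sets, leaving out _x_at and _s_at probe sets, and the median of variants without H2AX or of canonical genes without testis-specific members. The last of these could change nothing, as no testis-specific member was measured. The ratio calculation was tested on simulated data with known folds, set without noise in bright genes. This checks the arithmetic only, and not ratios near the floor. Promoter windows are RefSeq's on GRCh38.p14, matched by Entrez identifier. Protein sequences were not used here. Python 3.11.15, numpy 2.4.6, pandas 2.3.3, statsmodels 0.14.6 and matplotlib 3.10.9 were used.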

Additional observations from a re-analysis of the deposited data

Results flagged for a closer look

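Both results here are signals in control probe sets outside the comparison of genes. The 3' over 5' signal of beta-actin was 7.29 on the p53 on array, above the 1.37 of the p53 off array. The hybridization spike-ins were brighter on the p53 on array by a median of 1.89 times. Among genes counted as higher, scaling to them turned the log2 ratios of H2AC14, H2BC5 and H4C8 below 0. Among genes above 0 but within 1.5-fold, it did so for H2BC21 (-0.43), H3C6 (-0.041), H4C9 (-0.35) and H4C4 (-0.34). The variants H2AZ1 (-0.75), H2AZ2 (-0.83) and MACROH2A1 (-0.53) also fell below 0. The part of these control signals in the histone ratios was not tested.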

How the results depend on the processing

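With 1 array per condition, no alternative replaces a replicate. Signal over background was a further limit: 21 of 44 canonical genes were not measured and 7 of the 23 measured ones had only a bound. No paired analysis was possible because each condition had 1 array.

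The count of higher canonical genes was 7 of 23 measured. It was 4 of 17 with the floor at the 60th percentile and 14 of 44 with a pseudocount of 1. With spike-in scaling it was 1 of 19, and without _x_at and _s_at probe sets 3 of 15. The count of lower ones was 5, and under the same settings 3, 13, 8 and 3. Of all measured genes, 24.4%, 33.5%, 9.35% and 26.5% were higher under these settings in that order. The shares lower were 27.4%, 29.5%, 59.5% and 24.1%. Of 8 measured variants, 3 were higher and 1 lower. With spike-in scaling these counts were 1 and 4 of 7, and without _x_at and _s_at probe sets 1 and 0 of 4. The mean of a gene's probe sets also gave 0 lower, of 8. Spike-in scaling put the production list's median at -1.65 and the deposition list's at -1.97, with the all-gene median at -0.83, and counted 9.35% of all genes as higher and 59.5% as lower. Of the genes counted as higher, it turned H2AC14 to -0.15, H2BC5 to -0.061 and H4C8 to -0.21. Of 285 values of single histone genes under the alternatives, 250 lay within 1.5-fold of the value reported, 32 differed by more without a called direction turning, and those 3 turned. The cause was not tested.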
